A study of Mus musculus with 18 samples.

Results

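The S100 genes encode small calcium-binding proteins, and 8 of them, S100a8, S100a9, S100a6, S100a11, S100a4, S100a10, S100a1 and S100a13, were followed through neutrophil development. They were chosen by symbol from the 34896 genes of an expression table, and all 8 were among the 13061 genes with 1 TPM or more (a transcript's length-corrected share of all transcripts) in 3 or more libraries, the filter for testing. RNA-seq covered 3 cell types from the bone marrow of wild type C57BL/6 mice aged 6 to 12 weeks, with 3 libraries each. These were granulocyte-monocyte progenitors (GMP, sorted as lineage-negative, cKIT+ SCA1- cells with CD34 and the Fc receptors), neutrophil precursors (preNeu, sorted as Mac-1+ Gr-1+ cells with high cKIT and intermediate CXCR4) and mature neutrophils (matNeu, sorted as Mac-1+ Gr-1+ SiglecF- CXCR2+ cells). The chromatin remodelling ATPase CHD4 was mapped by ChIP-seq in GMPs of wild type (WT) and Gfi1-/- mice of the same strain and age, H3K4me2 in WT GMP, preNeu and matNeu cells, and open chromatin by ATAC-seq in WT preNeu and matNeu cells, with 1 library each. The peak lists therefore have no replicate check. The marrow of the leg and arm bones was pooled at harvest, and nothing says whether the 3 RNA libraries of a cell type came from separate mice, so the p-values measure the spread between these libraries, which may be technical. The cell type in the sample characteristics differs from the title in 9 of the 9 RNA-seq libraries. Groups follow the titles.

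The markers of each cell type were highest in the libraries titled for it. Summed over 6 markers, GMP genes (Cd34, Kit, Mpo, Elane, Prtn3 and Ctsg) reached 45270 to 47150 TPM in GMPs and 9.32 to 32.7 TPM in matNeu cells. The 5 preNeu markers (Ltf, Camp, Ngp, Lcn2 and Chil3) reached 145200 to 170900 TPM in preNeu cells and 4527 to 6795 TPM in matNeu cells. The 5 matNeu markers (Cxcr2, Mmp8, Mmp9, Retnlg and Il1b) reached 25850 to 29750 TPM in matNeu cells and 16.7 to 25.0 TPM in GMPs. Among other cells that the gates could hold, 5 monocyte markers summed to 3824 to 4606 TPM in GMP libraries. Their sum was 1671 to 2207 TPM at the preNeu stage and 1033 to 1416 TPM at the matNeu stage. These markers did not move together. In matNeu libraries Ly6c2 (676 to 1161 TPM) and Csf1r (253 to 350 TPM, above its 188 to 232 TPM in GMPs) made up most of the sum. Ccr2, F13a1 and Cx3cr1 were at most 0.89, 4.98 and 1.56 TPM there. Eosinophil markers summed to 849 to 1096 TPM and basophil and mast cell markers to 302 to 396 TPM in GMPs. Dendritic cell markers summed to 107.5 to 132 TPM in preNeu and 95.1 to 149 TPM in matNeu libraries. Most of this was Cd74, at 79.8 to 88.8 TPM in preNeu and 73.8 to 118 TPM in matNeu libraries. Of the B cell markers, Cd79a reached at most 0.60, 8.58 and 33.1 TPM in GMP, preNeu and matNeu libraries, and Ms4a1 at most 0.52, 2.84 and 16.0 TPM. T cell markers stayed at or below 4.10 TPM in every library. The part of these cells in the results was not tested.

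S100 proteins bind calcium through EF-hand motifs, mostly act as dimers, and change the partners they bind when calcium rises. S100A8 and S100A9 pair to form calprotectin, an abundant protein of the neutrophil cytosol that withholds zinc and manganese from microbes and, once released, acts as an inflammatory signal through receptors such as TLR4 and RAGE. GFI1 is a transcriptional repressor needed for neutrophil development, CHD4 is a core subunit of the NuRD nucleosome remodelling and deacetylase complex, and H3K4me2 marks promoters and enhancers.

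The members lie in 2 groups on chromosome 3 (GRCm38, GENCODE M21). S100a1 (90511034 to 90514392, minus strand), S100a13 (90514435 to 90524581, plus), S100a4 (90603771 to 90606045, plus), S100a6 (90612882 to 90624181, plus), S100a8 (90668978 to 90670035, plus) and S100a9 (90692632 to 90695721, minus) form the first group. S100a11 (93520488 to 93526287, plus) and S100a10 (93555080 to 93564643, plus) lie 2820 kb further on. S100a8 and S100a9 face each other across 22.6 kb, and S100a1 and S100a13 are transcribed away from start sites only 43 bp apart.

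The promoters of S100a8 and S100a9, the genes with the highest TPM among the members, and the shared promoter region of S100a1 and S100a13 are shown because CHD4, H3K4me2 or open chromatin was mapped there. Each runs from 250 bases before to 50 bases after the RefSeq start (GRCm38.p6), 5′ to 3′ on the gene's strand, and capitals mark matches on either strand to GAGGAAGT, the core bound by SPI1, or to TTNNGCAA, a core bound by C/EBP factors. S100a8 occupies chr3:90668821-90669120 (plus strand), S100a9 chr3:90695672-90695971 (minus strand) and S100a13 chr3:90514185-90514484 (plus strand).
S100a8: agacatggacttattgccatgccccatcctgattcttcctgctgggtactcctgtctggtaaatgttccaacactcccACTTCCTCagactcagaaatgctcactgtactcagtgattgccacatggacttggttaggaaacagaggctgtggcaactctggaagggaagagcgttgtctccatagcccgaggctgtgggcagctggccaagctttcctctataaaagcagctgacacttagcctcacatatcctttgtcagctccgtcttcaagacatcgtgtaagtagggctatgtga
S100a9: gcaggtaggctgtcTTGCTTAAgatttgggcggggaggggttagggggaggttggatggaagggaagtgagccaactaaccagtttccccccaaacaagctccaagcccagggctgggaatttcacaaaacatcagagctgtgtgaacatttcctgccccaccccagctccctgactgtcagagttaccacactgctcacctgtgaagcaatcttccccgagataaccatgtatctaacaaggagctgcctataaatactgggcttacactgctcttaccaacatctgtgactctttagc
S100a13: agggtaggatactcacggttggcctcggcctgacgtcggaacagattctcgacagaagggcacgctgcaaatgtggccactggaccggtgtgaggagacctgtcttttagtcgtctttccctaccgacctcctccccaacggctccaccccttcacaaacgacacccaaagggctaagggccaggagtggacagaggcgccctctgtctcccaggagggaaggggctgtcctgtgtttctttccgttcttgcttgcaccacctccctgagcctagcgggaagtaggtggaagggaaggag

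Positions here are counted from the RefSeq start, which for S100a8 lies past the GENCODE start. The S100a8 promoter held 1 SPI1 core on the opposite strand, starting 172 bases before its RefSeq start. The S100a9 promoter held 1 C/EBP core on the opposite strand, starting 236 bases before its RefSeq start. The S100a4 promoter held an SPI1 core at bases 18 to 25 after its RefSeq start. None of the 7 member promoters in the RefSeq table held AAATCA, the core bound by GFI1, on either strand. Of all 32851 promoters of this length, 14.0% held that core, 3.20% the SPI1 core and 10.8% the C/EBP core. The matches did not overlap one another. The S100a1 and S100a13 windows share 204 bases, and neither window held any of the 3 cores. S100a10 had no entry in the table.

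S100a8 and S100a9 were at low levels in GMPs and among the most abundant transcripts of all in preNeu and matNeu cells. S100a8 (ENSMUSG00000056054) was at 22.1, 44.4 and 28.9 TPM in the GMP libraries, 29349, 24049 and 25918 TPM in preNeu and 32250, 24702 and 14320 TPM in matNeu cells. The GMP libraries lay far below all others, and the preNeu and matNeu ranges overlapped. On the log2(TPM + 1) scale the change was 9.71 ± 0.29 (SE) from GMP to preNeu (adjusted p = 3.55e-09, limma across all genes tested with Benjamini-Hochberg adjustment) and 9.48 ± 0.29 from GMP to matNeu (adjusted p = 6.78e-10). The preNeu mean was 832 times the GMP mean. Between preNeu and matNeu the change was -0.23 ± 0.29 (adjusted p = 0.526), within the spread of the libraries.

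S100a9 (ENSMUSG00000056071) rose by more. It was at 3.83, 5.48 and 4.27 TPM in GMPs, 18831, 14646 and 16581 TPM in preNeu and 17351, 11467 and 8880 TPM in matNeu cells. Again GMPs stood apart and the later stages overlapped. The log2 change was 11.56 ± 0.22 from GMP to preNeu (adjusted p = 1.18e-10) and 11.11 ± 0.22 from GMP to matNeu (adjusted p = 8.34e-11, limma), and the preNeu mean was 3686 times the GMP mean. From preNeu to matNeu the change of -0.46 ± 0.22 missed the threshold (adjusted p = 0.0905), but without matNeu replicate 1 it was -0.72 (adjusted p = 0.00471), and with a scaling that leaves out the 10 most abundant genes -0.70 (adjusted p = 0.0202).

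**Figure D1:**
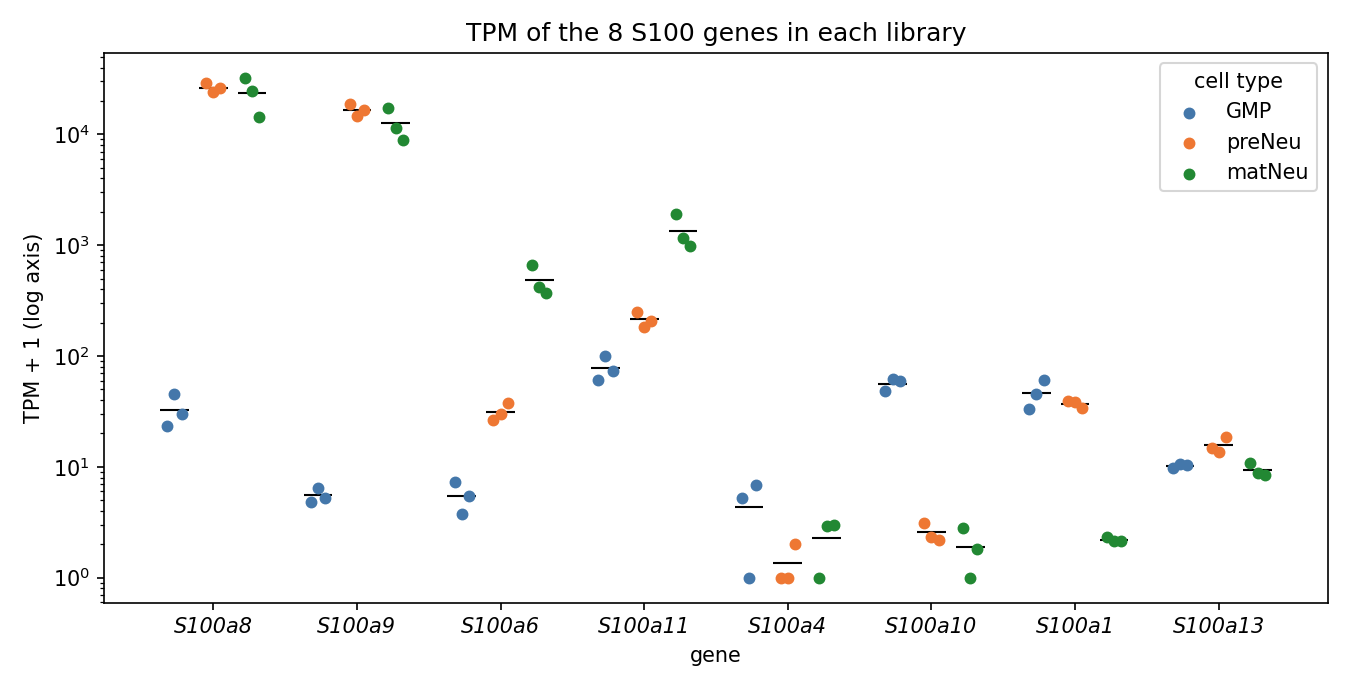
TPM + 1 of each member in each library, on a log axis, with 3 points per cell type (GMP, preNeu, matNeu) and a line at the mean of TPM + 1. S100a8 and S100a9 sit at or below 44.4 TPM in GMPs and at or above 8880 TPM in the other libraries, S100a6 and S100a11 climb at each stage, S100a10 is high only in GMPs and S100a1 is low only in matNeu cells.

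Calprotectin holds S100A8 and S100A9 in equal amounts, and their transcripts came closer to each other as both rose. The ratio of S100a8 to S100a9 TPM was 5.78, 8.10 and 6.76 in GMPs, 1.56, 1.64 and 1.56 in preNeu and 1.86, 2.15 and 1.61 in matNeu cells. Every GMP library lay above every later one. As log2 ratios of TPM + 1, the means were 2.52 ± 0.27 (SD, n = 3), 0.67 ± 0.04 and 0.90 ± 0.21. The cell types differed (exact permutation test over the 3 cell types, p = 0.00714). Summed over the 8 members, their part of the total TPM was 0.0184 to 0.0267% in the GMP libraries, 3.90 to 4.85% in the preNeu libraries and 2.46 to 5.22% in the matNeu libraries (exact permutation p = 0.0214). Nearly all of it was S100a8 and S100a9, which alone made up 3.87 to 4.82% at the preNeu stage and 2.32 to 4.96% at the matNeu stage. By TPM, S100a8 ranked 4 to 5 among all genes in preNeu and 1 to 3 in matNeu libraries, and S100a9 ranked 6 to 7 in preNeu and 4 to 7 in matNeu libraries.

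**Figure D2:**
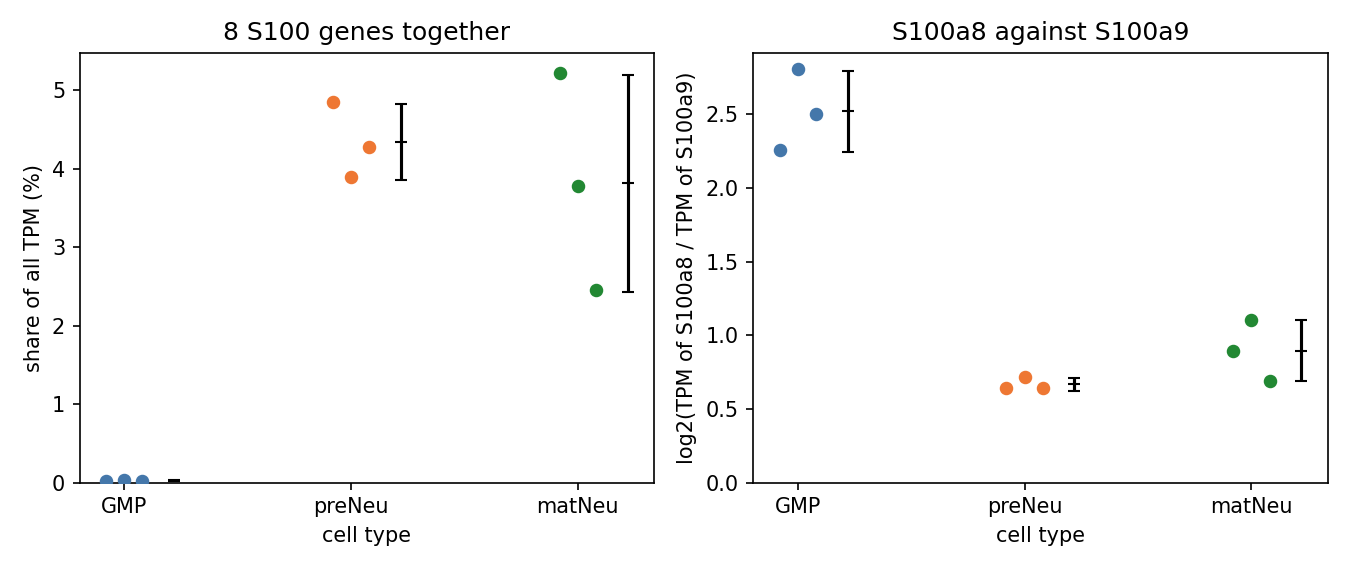
Left, percent of all TPM held by the 8 members, and right, log2 ratio of S100a8 to S100a9, each as TPM + 1. Each library is 1 point, 3 per cell type, with the mean ± SD beside them. The share is under 0.03% in GMPs and between 2.46 and 5.22% in the later libraries. The log2 ratio falls from over 2 to 1.11 or less.

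S100a6 and S100a11 rose at each stage and were highest in matNeu cells. S100A6, or calcyclin, binds annexins and the calcyclin-binding protein. S100a6 (ENSMUSG00000001025) was at 6.23, 2.78 and 4.50 TPM in GMPs, 25.3, 28.9 and 36.6 TPM in preNeu and 658, 418 and 372 TPM in matNeu cells. No ranges overlapped. The log2 change was 2.54 ± 0.28 from GMP to preNeu (adjusted p = 2.53e-05) and 3.92 ± 0.28 from preNeu to matNeu (adjusted p = 4.7e-07, limma), so that the matNeu mean was 107 times the GMP mean.

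S100A11 binds annexin A1. S100a11 (ENSMUSG00000027907) was at 59.5, 99.5 and 72.1 TPM in GMPs, 250, 183 and 206 TPM in preNeu and 1903, 1165 and 977 TPM in matNeu cells. The 3 cell types again did not overlap. Its log2 change was 1.47 ± 0.25 from GMP to preNeu (adjusted p = 0.000536) and 2.61 ± 0.25 from preNeu to matNeu (adjusted p = 5.41e-06, limma). In GMPs S100a11 had the highest mean TPM of the 8 members (77.1 ± 20.4, SD, n = 3).

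S100a10 and S100a1 fell, at different stages. S100A10, or p11, forms a complex with annexin A2 at the plasma membrane. S100a10 (ENSMUSG00000041959) was at 47.0, 60.5 and 58.2 TPM in GMPs, 2.14, 1.35 and 1.20 TPM in preNeu and 1.82, 0 and 0.80 TPM in matNeu cells. GMPs lay above all other libraries, and the change from GMP to preNeu was -4.46 ± 0.36 on the log2 scale (adjusted p = 3.59e-06, limma). The further -0.56 ± 0.36 from preNeu to matNeu missed the threshold (adjusted p = 0.205), and passed it without matNeu replicate 1 (-0.92, adjusted p = 0.0383).

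S100A1 is best known as a calcium sensor of muscle and heart. S100a1 (ENSMUSG00000044080) was at 32.0, 44.8 and 60.3 TPM in GMPs, 38.3, 37.0 and 32.6 TPM in preNeu and 1.32, 1.12 and 1.13 TPM in matNeu cells. Here GMP and preNeu libraries overlapped (log2 change -0.29 ± 0.24, adjusted p = 0.313, and 0.21 with median-of-ratios scaling) and matNeu cells stood apart, with a change of -4.08 ± 0.24 from preNeu (adjusted p = 1.09e-07, limma).

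S100A13 takes part in the release of signal proteins that lack a secretion signal, such as FGF1. Its gene shares a promoter region with S100a1, and each of its changes was under 1 on the log2 scale. S100a13 (ENSMUSG00000042312) was at 8.71, 9.68 and 9.28 TPM in GMPs, 13.7, 12.6 and 17.4 TPM in preNeu and 9.72, 7.71 and 7.46 TPM in matNeu cells. The preNeu libraries were above the others, by 0.60 ± 0.21 against GMP (adjusted p = 0.0328) and 0.74 ± 0.21 against matNeu on the log2 scale (adjusted p = 0.0108, limma). The first call was lost when any of 5 libraries was left out (each GMP library, preNeu replicate 1 or preNeu replicate 3, with adjusted p between 0.0554 and 0.108), and the second with median-of-ratios scaling (adjusted p = 0.106). From GMP to matNeu the change was -0.14 ± 0.21 (adjusted p = 0.552), and it turned to 0.65 (adjusted p = 0.0143) with median-of-ratios scaling.

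S100A4, a metastasis-associated protein, binds nonmuscle myosin IIA. S100a4 (ENSMUSG00000001020) was listed at 4.20, 0 and 5.92 TPM in GMPs, 0, 0 and 1.03 TPM in preNeu and 0, 1.90 and 1.98 TPM in matNeu cells. The model of another gene overlaps S100a4, so these values are uncertain. The cell types overlapped and no comparison passed the test (adjusted p between 0.113 and 0.41). Without GMP replicate 2, the library at 0, S100a4 was called lower than in GMPs in both preNeu (adjusted p = 0.00609) and matNeu cells (adjusted p = 0.0244).

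**Figure D3:**
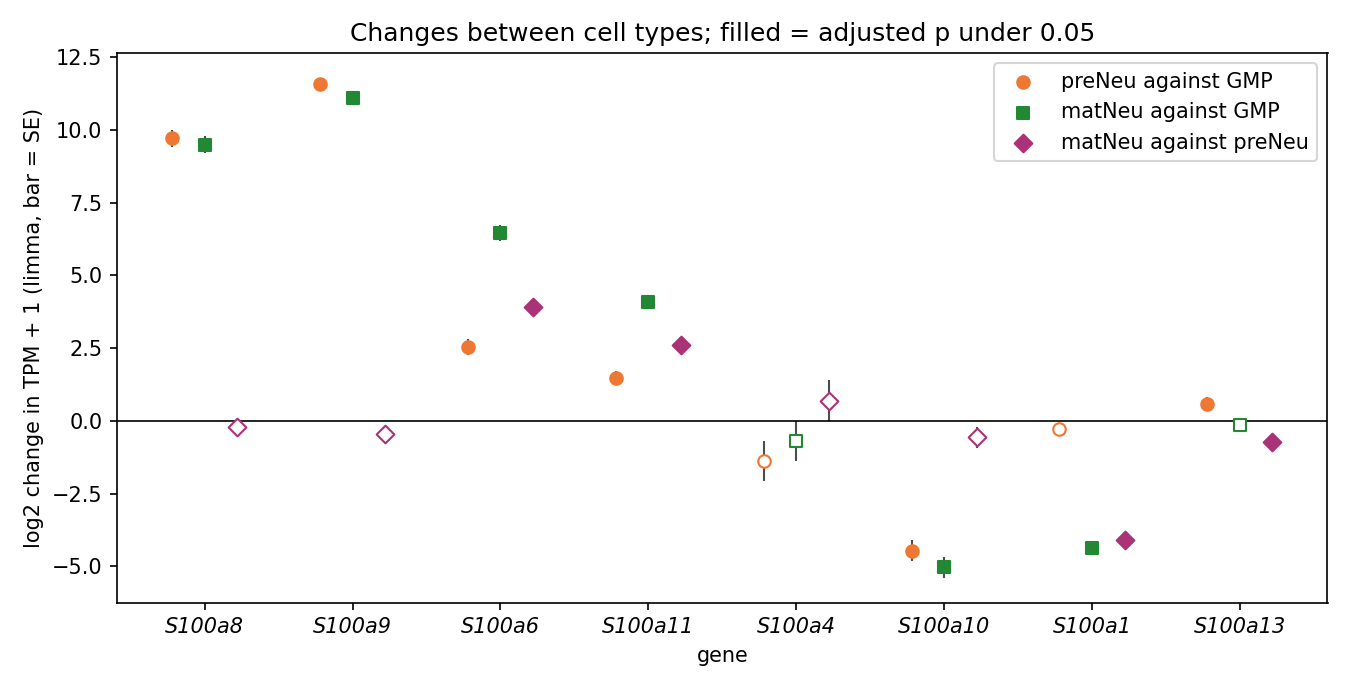
Log2 change in TPM + 1 of each member in 3 comparisons (first cell type minus second), from limma, with bars of 1 SE. Filled symbols have an adjusted p under 0.05, so that S100a8 and S100a9 have 2 filled and 1 open symbol, S100a6 and S100a11 have 3 filled symbols, and S100a4 has none.

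Counted together, 5 of the 8 members rose from GMP to preNeu, beside 14.7% of all genes tested, and 1 fell, beside 44.3%. From GMP to matNeu 4 rose, beside 22.8%, and 2 fell, beside 54.1%. From preNeu to matNeu 2 rose, beside 22.9%, and 2 fell, beside 39.8%. The median log2 change of the members was 1.04, 1.97 and -0.34 in these comparisons, and that of all genes tested -0.52, -0.92 and -0.32. The shares of all genes depend on the scaling. Of the genes called, 25% were higher in preNeu than in GMP, 29.6% in matNeu than in GMP and 36.5% in matNeu than in preNeu, and with median-of-ratios scaling these splits were 45.7, 46 and 47.6%, with medians of all genes of -0.08, -0.17 and -0.06. TPM is a share of a fixed total, and the 10 most abundant genes took 5.09 to 5.23% of it in GMP libraries, 23.2 to 26.2% in preNeu libraries and 8.94 to 11.8% in matNeu libraries. The comparisons with GMP share the GMP libraries. In bulk RNA of sorted cells, fewer expressing cells and less RNA per cell cannot be told apart.

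The other S100 genes were low. Of 10 in the table, 4 (S100a5, S100a14, S100z and the pseudogene S100a11-ps, which could share reads with S100a11) were listed at 0 in all 9 libraries. S100a16, S100b and S100g did not reach the filter. The 3 tested were at most 9.05 TPM in any library. S100a7a, which lies between S100a6 and S100a8, was at 0.31, 0 and 0 TPM in GMPs, 1.80, 0.39 and 0.85 TPM in preNeu and 6.87, 9.05 and 3.98 TPM in matNeu cells, and rose from preNeu to matNeu by 1.92 ± 0.35 (adjusted p = 0.000634, limma). S100a2 was at 0 in every GMP library and at 6.60, 2.24 and 1.81 TPM in matNeu cells (adjusted p = 0.00254). S100a3, whose gene model spans S100a2 so that their values are uncertain, reached 8.24, 6.53 and 1.39 TPM in matNeu cells from at most 0.17 TPM in GMPs (adjusted p = 0.00106).

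Over the 9 libraries, the gene whose log2(TPM + 1) was most like that of S100a8 among 8212 genes with a mean TPM of at least 10 was S100a9 (Pearson r = 0.999, a description of 9 libraries in 3 cell types). Slc35d2 was also among the 3 genes most like S100a8 (0.996) and S100a9 (0.997). S100a6 was most like Cnppd1, Icosl and Cd82 (0.995 to 0.997), and S100a11 most like Tyrobp (0.998), an adaptor of activating myeloid receptors, then Lst1 and Ifitm3. S100a10 was most like Zbed3, Pus7 and the galectin gene Lgals1 (0.992 to 0.996), and S100a1 most like the mitotic checkpoint gene Zwilch, Yeats4 and Fadd (0.995 to 0.996). S100a13 (Larp1b 0.948, then Kctd9 and Lnpk) and S100a4 (Sdhaf2 0.863, then Adamts10 and Tbl1xr1) had less similar partners. Among the members themselves, S100a6 and S100a11 followed each other (r = 0.976) and S100a10 ran opposite to S100a8 and S100a9 (r = -0.97 for both).

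Genes of the proteins that S100 proteins bind were listed with earlier results of these data known. Of 9 receptors proposed for S100A8 and S100A9, 5 rose and 2 fell from GMP to preNeu, beside 14.7 and 44.3% of all genes tested. From GMP to matNeu 5 rose and 1 fell, beside 22.8 and 54.1%. With median-of-ratios scaling the counts were 6 and 2, then 7 and 1, beside 23.4 and 27.8%, then 35.3 and 41.4%. From preNeu to matNeu 6 rose and 2 fell, beside 22.9 and 39.8%. Every change named for these lists kept its direction and call with both other scalings. Tlr4 rose from 13.1 ± 1.90 TPM (SD, n = 3) in GMPs to 26.4 ± 7.85 TPM in preNeu and 90.1 ± 4.62 TPM in matNeu cells. Ager, which encodes RAGE, was low but rose, to 6.40 ± 1.05 TPM in matNeu cells (adjusted p = 5.73e-05 against GMP, limma). Cd33, a sialic acid receptor, had the largest rise from GMP to matNeu of the list, by 7.98 ± 0.17 on the log2 scale (adjusted p = 1.18e-10). Bsg, which encodes basigin (CD147), fell at each stage, by 1.15 and then by 1.07 on the log2 scale (adjusted p = 1.84e-05 and 1.58e-05). Emb fell by 3.35 from GMP to preNeu and rose again by 3.56 in matNeu cells (adjusted p = 1.02e-08 and 2.71e-09).

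Of 10 genes of intracellular partners, 5 rose and 3 fell from GMP to preNeu, beside 14.7 and 44.3% of all genes tested. From GMP to matNeu 6 rose and 4 fell, beside 22.8 and 54.1%. With median-of-ratios scaling the counts were 7 and 3, then 6 and 3, beside 23.4 and 27.8%, then 35.3 and 41.4%. From preNeu to matNeu 6 rose and 3 fell, beside 22.9 and 39.8%. The partner of S100A10 moved against it. Anxa2 rose by 1.35 ± 0.12 from GMP to preNeu and by 3.91 ± 0.12 from GMP to matNeu (adjusted p = 8.14e-06 and 8.09e-10, limma), to 4997 ± 302 TPM, where S100a10 fell to under 2 TPM. Anxa1, the partner of S100A11, rose to 6913 ± 309 TPM in preNeu and was at 3205 ± 763 TPM in matNeu cells, from 456 ± 38.9 TPM in GMPs. Cacybp, the calcyclin-binding protein gene, fell by 3.95 from GMP to matNeu on the log2 scale (adjusted p = 1.39e-09) while S100a6 rose by 6.46. Myh9, the myosin bound by S100A4, rose by 2.33 (adjusted p = 1.46e-07).

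S100A8 and S100A9 carry arachidonic acid to the NADPH oxidase, the source of the neutrophil's oxidative burst. All 6 oxidase genes listed rose from GMP to both later stages, beside 14.7% of all genes tested for preNeu and 22.8% for matNeu. From preNeu to matNeu 2 rose and 3 fell (2 and 1 with median-of-ratios scaling), beside 22.9 and 39.8%. Cybb, the catalytic subunit of the oxidase, went from 80.4 ± 18.7 TPM in GMPs to 1965 ± 180 TPM in preNeu cells. It was back at 286 ± 41.4 TPM in matNeu cells (adjusted p = 2e-07 for the fall, limma). Of 7 regulators linked to the S100a8 and S100a9 promoters, 5 rose and 1 fell from GMP to preNeu, beside 14.7 and 44.3%. From GMP to matNeu 4 rose and 2 fell, beside 22.8 and 54.1%, and from preNeu to matNeu 3 rose and 2 fell. Cebpe, required for the secondary granule genes, rose by 4.15 ± 0.32 into preNeu (adjusted p = 2.43e-06) and fell by 3.54 into matNeu cells (adjusted p = 2.93e-06). Cebpd, Spi1 and Stat3 rose at each stage, and Cebpa fell by 1.74 from GMP to preNeu. Gfi1 rose by 1.25 into preNeu (adjusted p = 0.0108, limma) and was listed at no more than 0.14 TPM in matNeu cells. For GFI1 protein the paper reports the opposite order, with more in matNeu than in preNeu cells by western blot. Of the 3 other genes of the table that lie within the spans of the S100 groups, none passed the filter. A gene model among them overlaps S100a4.

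CHD4 was called at 20 sites within 10 kb of the members in WT GMPs and at none in Gfi1-/- GMPs, with 1 library of each and so no test. In WT, 6 of the 8 members had at least 1 site, beside 41.8% of 13048 genes tested and placed on the genome, and S100a1 and S100a13 had none. In Gfi1-/- GMPs, 13.8% of those genes had a site. The Gfi1-/- list is the shorter, with 7316 sites against 35790, so most WT sites have no match in it. Whether depth or enrichment differed between these libraries was not tested. The paper counted fewer WT sites and reports that most sites with both GFI1 and CHD4 lost CHD4 in Gfi1-/- GMPs. It also shows this loss by ChIP-qPCR at selected genes, and finds Chd4 RNA and CHD4 protein unaltered. Sites with CHD4 but not GFI1 it describes as mostly kept. Which of the sites here also bound GFI1 was not tested. Of the 28542 WT sites with a fold enrichment in the range of the members' sites (3.5 to 14.7 over background), 5.12% overlapped a site in Gfi1-/- GMPs by at least 1 bp, against 0 of 20 here, and of all WT sites 18.5% did. The nearest Gfi1-/- site, at chr3:90578496-90578688 in an intron of S100a3 (fold 5.27), was 25.2 kb before S100a4.

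The strongest of the 20 sites, with a fold of 14.7 and a −log10 q-value of 43.3, was intergenic between S100a8 and S100a9 at chr3:90686579-90687287, 9003 bp past the S100a9 start. The 101 bases around its summit (chr3:90686668-90686768, plus strand, GRCm38.p6) are shown as the strongest CHD4 site near a member, and hold no match to the 3 cores, so no base is in capitals.
CHD4 summit: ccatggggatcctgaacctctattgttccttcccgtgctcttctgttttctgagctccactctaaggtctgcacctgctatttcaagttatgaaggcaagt

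The next strongest, with a fold of 12.3 and a −log10 q-value of 35.0, lay over the S100a8 start (chr3:90668728-90669491), with its summit 38 bp before the GENCODE start, so the promoter sequence shown for S100a8 lies wholly inside it. A site of fold 7.99 lay in an intron of S100a9 (chr3:90693564-90693837), and the S100a9 start itself was not covered. S100a10 had 6 sites, the most of any member, among them 1 over its start (chr3:93554980-93555650, fold 8.69) and 1 of fold 10.5 at 2672 bp before it (chr3:93552229-93552866). S100a6 and S100a4 had sites of fold 4.79 and 5.24 over their starts, and S100a11 had 3 sites of 4.74 to 6.52 around a start that none covered. By position, 8 of the 20 sites were in promoters (2 kb before to 500 bp after a start), 8 intergenic and 4 in gene bodies. Of the 20, 14 overlapped an H3K4me2 peak of GMPs, against 37.8% of all WT sites, and 8 an ATAC peak, against 10.1%.

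H3K4me2, with 1 library per cell type and no test, covered S100a8 and S100a9 broadly in preNeu and matNeu cells but not in GMPs. In GMPs no peak covered either start, and peaks took up 3.07% of the 10 kb window around S100a8 and 1.88% of that around S100a9, at folds of 2.38 to 2.89. In preNeu cells a single peak of 55.6 kb (chr3:90654914-90710545, fold 10.8) covered both windows whole, along with S100a7a, and in matNeu cells a peak of 56.4 kb did (chr3:90654758-90711190, fold 8.90). By width these ranked 2 among 49578 peaks and 3 among 44094 peaks, in lists with a median width of 1223 and 1136 bp. GMP peaks held 2.99% of the preNeu domain. Inside the domain lay 7 CHD4 sites of WT GMPs.

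**Figure D4:**
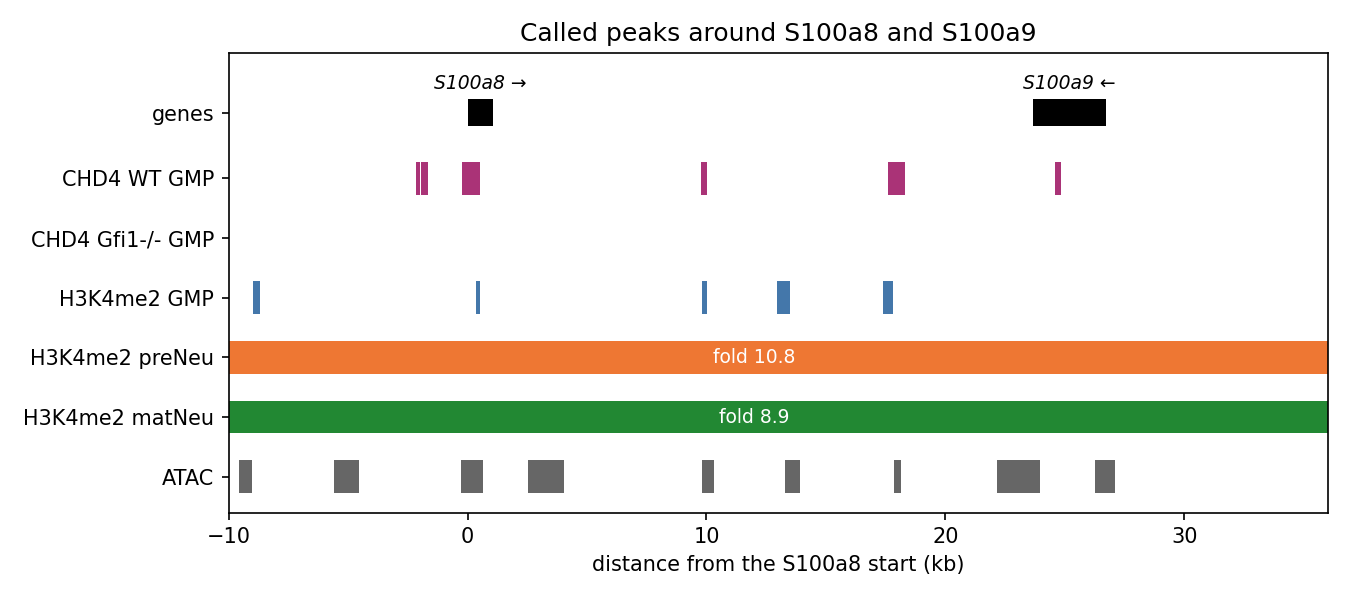
Called peaks from 10 kb before to 36 kb after the S100a8 start, with S100a8 and S100a9 alone of the genes there drawn, in black, and 1 row per list, each of 1 library, where bars show the extent of a peak. CHD4 has 6 peaks in WT GMPs and none in Gfi1-/- GMPs, and H3K4me2 goes from 5 short peaks in GMPs to 1 domain across the whole window in preNeu (fold 10.8) and matNeu cells (fold 8.90).

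At least 1 H3K4me2 peak lay within 10 kb of all 8 members in each cell type, as it did for 90.5% of tested genes in GMP, 92.8% in preNeu and 92.1% in matNeu cells. The start itself was covered for 4 of 8 members in GMPs (68.3% of tested genes), 7 in preNeu (80.1%) and 7 in matNeu cells (78.4%). S100a4 was the member whose start carried no peak at any stage, but a GMP peak began just past that start (chr3:90603810-90604628, fold 2.51). Peaks took up 22.2, 30.3 and 33.3% of the S100a4 window in GMP, preNeu and matNeu cells. That window overlaps the S100a6 window and takes in most of the peak over the S100a6 start (chr3:90611686-90616155 in preNeu, chr3:90611081-90617220 in matNeu). The GMP peaks at chr3:90601756-90602922, chr3:90603810-90604628 and chr3:90605329-90606367, at or near S100a4, overlapped no preNeu peak. Of these, only chr3:90603810-90604628 overlapped a matNeu peak (fold 2.46). The S100a1 and S100a13 windows overlap as well. The members' genes are short, with a median length of 4580 bp against 19782 bp for tested genes, so that their windows are mostly flank. The median share of the window inside peaks was 11.2, 35.3 and 36.9% for the members in GMP, preNeu and matNeu cells, against 6.77, 12.2 and 9.50% for tested genes. Folds of the 3 lists are on different scales, with medians of 2.89, 4.55 and 3.78.

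Among the members that rose at each stage, S100a6 went from 12.2% of its window in GMPs to 40.2 and 40.4%, and S100a11 from 5.88 to 40.9 and 51.7%, with its start covered from preNeu on. S100a10 and S100a1, whose RNA fell, kept a peak over their starts at every stage. At the S100a10 start the fold was 3.69, 10.9 and 7.67 in GMP, preNeu and matNeu cells, while the share of its window inside peaks was 21.5, 18.5 and 11.7%, the only member with less than in GMPs at a later stage. The region shared by S100a1 and S100a13 carried 1 peak over both starts at every stage, with a fold of 4.57, 13 and 10.5. From GMP to matNeu S100a1 RNA fell, and S100a13 RNA passed the test only with median-of-ratios scaling, where it rose.

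**Figure D5:**
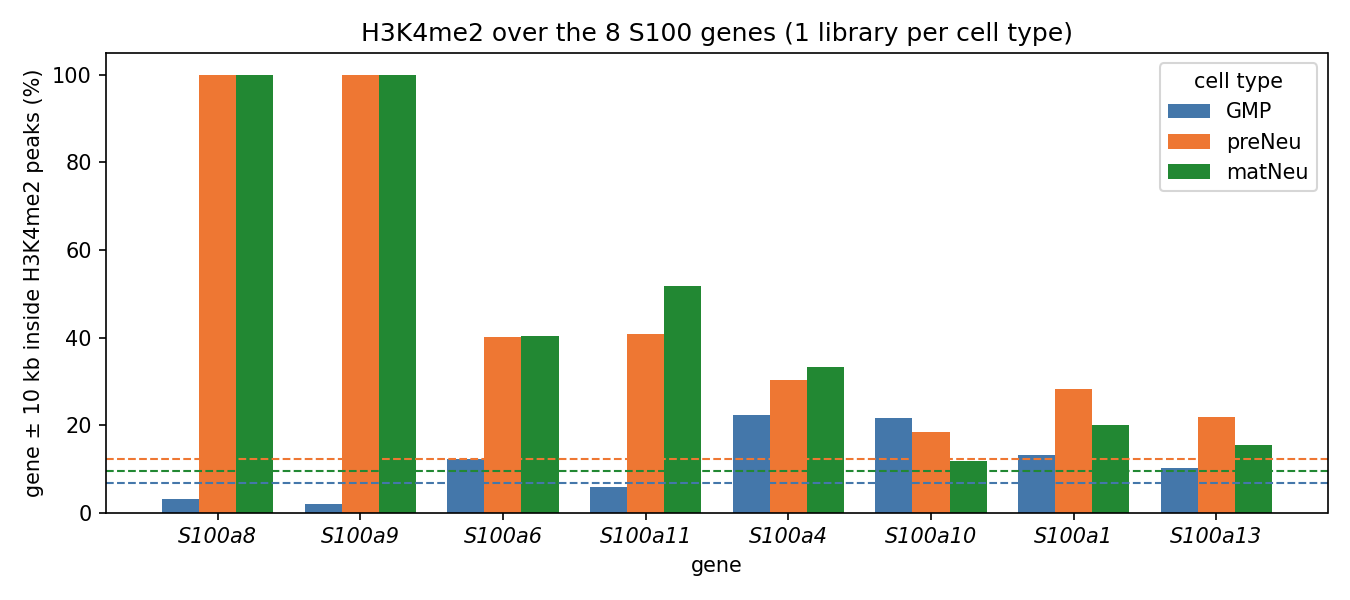
Percent of each member's gene plus 10 kb on either side that lay inside H3K4me2 peaks, 1 library per cell type, with dashed lines at the median of tested genes in the same cell type. S100a8 and S100a9 go from 3.07 and 1.88% in GMPs to 100% in preNeu and matNeu cells, and S100a10 goes down from 21.5 to 11.7%.

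Both ATAC lists, titled preNeu and matNeu, held the same 16307 peaks with the same positions, folds and q-values and were used as 1 list, so that the stages cannot be told apart. Open chromatin was called at 14 places within 10 kb of the members, and all 8 members had at least 1, beside 75.1% of tested genes. Peaks covered the starts of S100a9 (fold 6.03), S100a8 (6.00), S100a6 (4.41) and S100a11 (3.74). These were the 4 members with the highest mean TPM in matNeu cells, but not in preNeu cells. The starts of S100a4, S100a10, S100a1 and S100a13 had no ATAC peak. In preNeu cells the mean TPM of S100a1 was above that of S100a6, although their libraries overlapped. Inside the H3K4me2 domain over S100a8 and S100a9 lay 9 ATAC peaks. Among them were peaks over the strongest CHD4 site (chr3:90686845-90687122, fold 3.85) and over a weaker one between these genes (chr3:90678779-90679291, fold 3.32). The ATAC peak at the S100a8 start also overlapped a CHD4 site.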

How the data were processed

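RNA-seq (GMP, preNeu and matNeu cells, 3 libraries each) and peak lists of CHD4, H3K4me2 and ATAC-seq (1 library each) were analysed. The members and gene lists were chosen with earlier results of these data known, and the genes named are the members, the other S100 genes, the listed partners and the 3 genes most like each member, of which 1 is not reported here, as is 1 cell type marker. The authors deposited TPM per gene and library. Their processing notes name kallisto 0.44.0, BWA 0.7.17, MACS2 2.1.0 and mm10, while the methods describe TopHat and HTSeq. TPM keeps no depth, so no count test was used and the depth per library is unknown. In the peak lists the authors deposited a fold enrichment, a linear ratio, a −log10 q-value and a score of each peak, as the peak caller wrote them. The score was not used. How many reads lie behind a peak is unknown.

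All libraries entered 1 fit of log2(TPM + 1) with limma 3.58.1 (R 4.3.3), with a variance trend and Benjamini-Hochberg adjustment over the 13061 genes that reached 1 TPM in 3 or more libraries, at 0.05. Values per library were compared with exact permutation tests (scipy 1.17.1, two-sided in effect, as the statistic is the spread between cell types). The scripts were tested on simulated data. Same-numbered libraries did not vary together (correlations of -0.04 to 0.12), and the fit did not pair them. This does not show whether same-numbered libraries came from the same mouse. Peaks were counted within 10 kb of a gene of GENCODE M21, and shared means at least 1 bp. The GFI1 and H3K4me3 lists have peaks beyond GRCm38 chromosome ends and were not used here. Columns left unused in the expression table numbered 0.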

Additional observations from a re-analysis of the deposited data

How the results depend on the processing

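The calls of S100a8, S100a9, S100a6, S100a11, S100a10 and S100a1 against GMPs kept their direction and side of the threshold in all alternatives run, as did the calls of S100a6, S100a11 and S100a1 between preNeu and matNeu. Alternatives were a pseudocount of 0.1, no filter or a filter of 5 TPM (where S100a4 was not tested), other scalings, no variance trend, the compared groups alone, a minimum log2 change of 1 (which S100a13 did not reach), the replicate block and leaving out each library. The cause of the changes below was not tested. With median-of-ratios scaling the sign turned for S100a1 from GMP to preNeu (0.21), S100a13 from GMP to matNeu (0.65) and S100a8 from preNeu to matNeu (0.14), as it did for S100a1 with the 10 most abundant genes left out (0.023) and for S100a8 without matNeu replicate 3 (its range without 1 library was -0.49 to 0.10). Members called lower from preNeu to matNeu numbered 1 with median-of-ratios scaling, 1 with a minimum log2 change of 1 and 2 to 4 without 1 library (4 without matNeu replicate 1), and those lower from GMP to preNeu 1 to 2 (2 without GMP replicate 2). With the replicate block, S100a13 from GMP to preNeu had an adjusted p of 0.0548, so that 4 members were called higher there, and no other call of a member changed. The members' share of TPM in preNeu cells was 5.74% with the 10 most abundant genes left out. Within 2 kb of the members lay 12 CHD4 sites of WT GMPs and 9, 9 and 10 H3K4me2 peaks of GMP, preNeu and matNeu cells. Within 50 kb the H3K4me2 peaks were 27 in preNeu and 29 in matNeu cells, and CHD4 had 1 site in Gfi1-/- GMPs, which overlapped 1 WT site. At a −log10 q-value of at least 5, H3K4me2 peaks numbered 2, 10 and 8 and ATAC peaks 5. With only bases before the start, 1 promoter held the SPI1 core.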
